A study of Mus musculus with 12 samples.

Results

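Collagen genes outside the main basement membrane chains were followed in RNA of 4599 cells, a mouse melanoma line. The members were the protein-coding genes of the deposited table whose symbol is Col, a number, a and a number. Col4a1, Col4a2 and Col18a1 were left out, which kept 41 of 44 collagen genes among the 56748 genes of the table. The rule still holds Col4a3 to Col4a6, which build basement membrane networks of other tissues, and Col7a1 and Col15a1, which lie at such membranes, so not every member is a collagen of the interstitial matrix. There are 12 libraries. TB, PIF and DIF, with 3 libraries each, are labelled as parts of orthotopic melanomas, and Met, also with 3, as lung metastases. The labels do not spell out these abbreviations. Cells of every group were isolated, plated on bovine dermal collagen in fibrillar form (1.7 mg/ml), held 24 h in 10% serum and 24 h in 1% serum, and then lysed. The 4 groups thus shared 1 cell line, 1 substrate and 1 medium, and the comparisons ask which collagen RNAs still differed by the site the cells came from. The labels give neither the way cells were isolated nor whether a group's libraries stem from separate animals. The p-values below therefore reflect the spread among these libraries alone, and that spread may be technical.

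Collagens are secreted or membrane proteins whose alpha chains wind into a triple helix. Fibrillar collagens (types I, II, III, V and XI among others) form the rope-like fibrils of skin, cartilage and scar, in which types V and XI are minor chains that start fibrils and limit their width. FACIT collagens such as types XII and XVI sit on the surface of fibrils, type VI forms beaded microfilaments around cells, and types VIII and X form open networks. In skin and in tumours the bulk of type I and type III collagen is made by fibroblasts, and melanoma cells in contact with that matrix read it through integrins and discoidin domain receptors. Some collagens, such as types II, III and X, join like chains, and others, such as types I, V and VI, usually join different ones, for which the levels of partner chains are given side by side.

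Reads rebuilt from the deposited FPKM (fragments scaled by gene length and by library size) numbered 15.5 to 18.4 M per library, with 17.2 ± 1.46 M in PIF and 18.1 ± 0.182 M in Met as the lowest and highest group means (SD, n = 3). Of 12 melanocytic and neural crest markers, Sox10 (203 to 269 FPKM over the libraries) and Ngfr (121 to 210 FPKM) were the most abundant and Tyrp1 was at 0 reads in every library. The pigment genes Pmel, Mlana, Dct and Tyr did not exceed 1.03, 0.397, 0.139 and 0.0325 FPKM in any library. The 12 summed to 549 to 627 FPKM (TB), 665 to 745 (PIF), 416 to 472 (DIF) and 444 to 504 (Met). Gpnmb was at 93.5 ± 3.44, 170 ± 25.3, 7.66 ± 1.03 and 6.57 ± 0.115 FPKM in that order. Mitf was at 15.2 ± 0.622, 11.1 ± 2.41, 4.24 ± 1.17 and 4.25 ± 0.827 FPKM. S100b was lowest in PIF, at 82.7 ± 9.17, 66.2 ± 7.87, 78.0 ± 7.89 and 93.8 ± 12.6 FPKM. The 12 fibroblast markers summed to 90.8 to 95.6 FPKM (TB), 88.1 to 91.2 (PIF), 112 to 118 (DIF) and 105 to 109 (Met), nearly all of it Gsn, an actin-severing protein that many cell types hold (mean 101 FPKM). Among the other fibroblast markers the most abundant was Pdgfra, at 0.181 ± 0.0276 FPKM (TB), 0.384 ± 0.111 (PIF), 0.159 ± 0.0590 (DIF) and 0.207 ± 0.0243 (Met). Dcn did not exceed 0.262 FPKM and Lum 0.0222 FPKM in any library, and Mfap5 was at 0 reads. The 7 chondrocyte markers summed to 5.77 to 6.56 FPKM (TB), 4.35 to 7.92 (PIF), 9.34 to 12.7 (DIF) and 6.37 to 7.33 (Met). Most of that sum was Col2a1 itself, Sox9 followed with a mean of 1.03 FPKM, and Acan did not exceed 0.00752 FPKM. Markers of pericytes and smooth muscle summed to 0.552 to 0.770 FPKM (TB), 2.06 to 2.67 (PIF), 1.32 to 3.20 (DIF) and 1.11 to 2.13 (Met), led by Rgs5 (mean 0.782 FPKM) and Notch3 (0.390), with Kcnj8 at 0 reads. Leukocyte markers reached 3.08 FPKM in sum in a PIF library and at most 2.42 in the other groups, led by Cd68 (mean 1.28 FPKM) and Lyz2 (0.233), with Adgre1, Cd3e and Itgam at 0 reads. Keratinocyte markers lay between 2.02 and 3.31 FPKM, nearly all Krt10 (mean 2.64 FPKM), with Krt1, Krt5 and Trp63 at 0 reads. Lung epithelium markers, led by Foxj1 (0.519 FPKM) and Ager (0.270), did not exceed 1.42 FPKM in sum in a Met library, with Sftpa1 at 0 reads. Endothelial markers did not exceed 0.360 FPKM in sum and Cldn5 was at 0 reads. The part of these markers in the differences below was not tested. In bulk RNA, fewer cells that make a collagen and less of its RNA per cell cannot be told apart.

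The cells held RNA of a restricted set of collagens. Of 41 members, 6 had a mean of at least 10 FPKM over the 12 libraries, 3 lay between 5 and 10, and 25 lay under 0.5 FPKM. Col8a1, the alpha1 chain of the network collagen VIII (chromosome 16, 57444621 to 57575100, minus strand), was the most abundant, with a mean of 38.5 FPKM. It was followed by Col6a1 of the beaded filaments at 24.9 FPKM, the fibrillar chain Col5a2 at 20.4, the FACIT chain Col16a1 at 16.1, the fibrillar chain Col5a1 at 13.6 and the network chain Col4a5 at 12.4. Col8a1 made up 25.4 ± 0.791% (TB), 22.6 ± 2.30% (PIF), 22.1 ± 1.99% (DIF) and 25.9 ± 2.41% (Met) of the summed collagen FPKM (SD, n = 3). The 5 most abundant members together held 66.4 to 73.6% of that sum in every library and the 10 most abundant 93.0 to 95.5%. The sum itself was 145 to 164 FPKM (TB), 94.9 to 147 (PIF), 157 to 198 (DIF) and 166 to 205 (Met). Levels per length depend on the gene lengths the authors listed, which for Col6a2 (8326 bases) and Col1a2 (12426 bases) are long beside those of their partners Col6a1 (4380) and Col1a1 (6563).

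**Figure D1:**
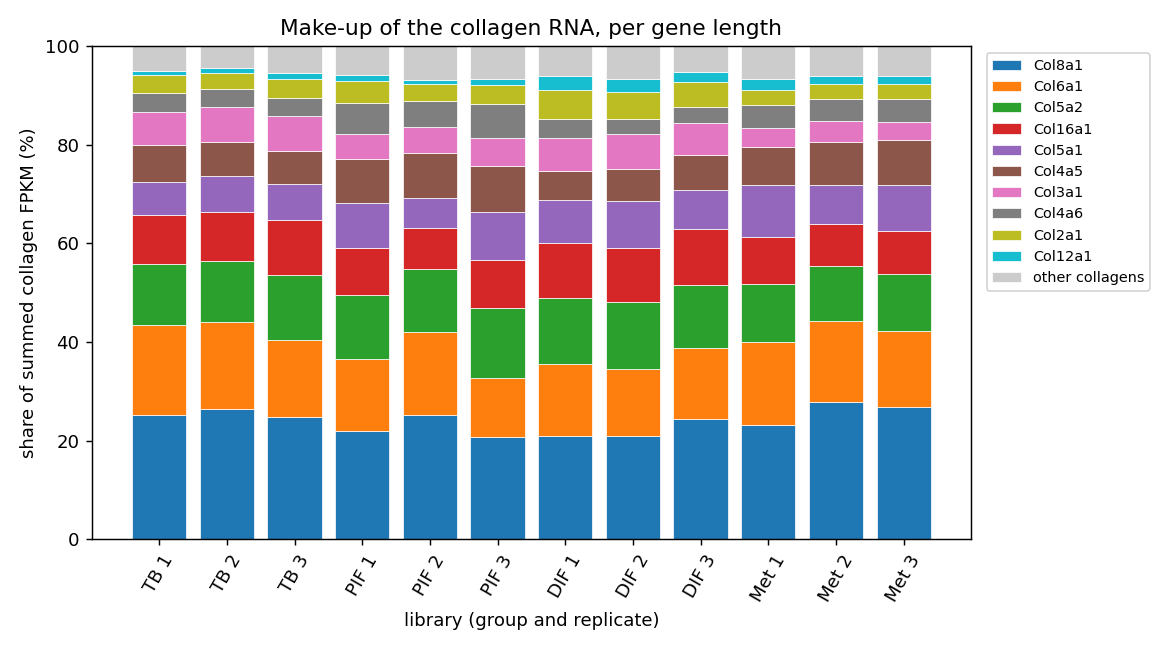
Share of each collagen gene in the summed FPKM of the 41 collagens (y axis, percent) in each of the 12 libraries (x axis), with the 10 most abundant genes coloured and the others pooled in grey. Col8a1 is the largest band in every group, at a mean of 22.1 to 25.9%, and the grey band stays narrow because 10 genes hold 93.0 to 95.5%.

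Partner chains were present in unequal amounts. Col5a2 exceeded Col5a1, its partner in type V collagen, with a quotient of FPKM of 1.79 ± 0.0843 (TB), 1.67 ± 0.419 (PIF), 1.55 ± 0.0796 (DIF) and 1.27 ± 0.151 (Met). The Met quotients (1.12 to 1.42) lay under the DIF quotients (1.46 to 1.62), which lay under the TB quotients (1.69 to 1.84), while PIF (1.42 to 2.16) overlapped all 3 groups. These quotients were not tested. For type VI collagen, whose usual molecule joins an alpha1, an alpha2 and an alpha3 chain, Col6a1 was 16.6 ± 2.46 times Col6a2 (TB), 16.5 ± 2.03 (PIF), 13.3 ± 3.12 (DIF) and 15.5 ± 1.37 (Met). Col6a3, the alpha3 chain, had 0 to 33 reads per library against 1276 to 2754 reads of Col6a1. Col8a2, the partner of Col8a1 in mixed type VIII molecules, had 0 reads in all 12 libraries, which allows at most 0.00314 FPKM (3 reads over all libraries, counting error only). Type I collagen, the main collagen of dermis, was nearly absent as RNA: Col1a2 had 1 to 9 reads per library and Col1a1 4 to 153. Col13a1, Col19a1, Col26a1 and Col6a5 also had 0 reads in every library, with limits of 0.00150 to 0.00301 FPKM by the same count. Col6a6 had 2 reads in all and Col22a1 1 read.

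A mean of at least 0.5 FPKM was required for the test across all genes, and 16 of the 41 collagens passed. Col10a1, at a mean of 0.583 FPKM, passed only because of its level in Met, so a difference for it was built into the filter. It counts among the 16 and among the calls below, and its calls are no support for a difference. Col11a1 (0.498 FPKM) and Col9a3 (0.492) lay just under it. limma was fitted to log2(FPKM + 1) in all 12 libraries, and calls were made where the p-value, adjusted by Benjamini-Hochberg over the 12661 genes tested, was under 0.05. In the F test over the 4 groups 7 of the 16 collagens were called, against 24.8% of all tested genes. They were Col8a1, Col6a1, Col3a1, Col2a1, Col12a1, Col15a1 and Col10a1. Col16a1, Col6a2 and Col4a5, called in pairs of groups below, did not pass the F test (adjusted p 0.054, 0.053 and 0.072). Fold changes below are on the log2(FPKM + 1) scale, which understates the change of genes with few FPKM.

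Against TB, PIF cells held less of 3 of the 16 tested collagens and more of 0, while 14.1% of all tested genes were called in that comparison, 7.52% higher and 6.58% lower. The 3 were Col8a1, Col6a1 and Col3a1. At an unadjusted p under 0.05 limma had 5 lower and 1 higher, and voom on reads, described below, called 4 of 26 lower and 0 higher, against 14.2% of all genes. The 4 include Col9a1, which entered that test only through groups where it was high, with under 10 reads in every PIF library. The PIF count was 1 without TB replicates 1 or 2 and 2 without TB replicate 3 or PIF replicate 3. The median log2 fold change of the 16 was −0.13, beside 0.00021 for all tested genes. DIF against TB had 3 of 16 higher (Col12a1, Col15a1 and Col2a1) and 0 lower, against 8.62% of all genes (4.26% higher and 4.36% lower), with a median of 0.19. At an unadjusted p limma had 3 higher and 0 lower, and voom called 4 of 26 higher and 0 lower, against 10.4% of all genes. The 4 include Col23a1, which entered that test only through DIF and Met, where it was high. Met against TB had 4 higher (Col10a1, Col12a1, Col15a1 and Col4a5) and 1 lower (Col3a1), against 9.94% of all genes (5.32% higher and 4.63% lower), with a median of 0.20. At an unadjusted p limma had 7 higher and 2 lower, and voom called 8 of 26 higher and 3 lower, against 12.4% of all genes. The 8 include Col23a1 and Col6a3, which both entered through the groups where they were high. The 3 lower include Col9a1, which likewise entered through groups where it was high. The Met count against TB depended on single libraries: it was 1 without any of TB replicates 2 or 3, PIF replicate 1 or Met replicates 1, 2 or 3, 2 without TB replicate 1, 3 without DIF replicates 1 or 2 and 7 without PIF replicate 2. Where it was 1, that call was Col10a1, whose difference was built into the filter.

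DIF and PIF, both labelled as parts of the orthotopic tumours, were compared next. DIF against PIF had 7 of 16 higher and 0 lower, against 18.9% of all genes (9.03% higher and 9.85% lower). At an unadjusted p limma had 9 higher and 0 lower, and voom called 11 of 26 higher and 0 lower, against 20.6% of all genes. The 11 include Col23a1 and Col9a1, whose differences were built into the voom filter. The 7 called by limma were Col8a1, Col6a1, Col6a2, Col3a1, Col2a1, Col16a1 and Col12a1, and the median over the 16 was 0.47 on the log2 scale, beside 0.0075 for all genes. The count was 4 without DIF replicate 2 and 9 without DIF replicate 3. Met against PIF had 5 higher (Col8a1, Col6a1, Col6a2, Col12a1 and Col10a1) and 0 lower, against 17.6% of all genes (8.85% higher and 8.8% lower), with a median of 0.34, and the count was 3 without Met replicate 1. At an unadjusted p limma had 9 higher and 1 lower, and voom called 10 of 26 higher and 1 lower, against 19.6% of all genes. The 10 include Col23a1 and Col6a3, whose differences were built into the voom filter. Met against DIF had 1 higher (Col10a1, built into the filter) and 1 lower (Col3a1), against 3.86% of all genes (2.36% higher and 1.5% lower), with a median of −0.13. At an unadjusted p limma had 3 higher and 3 lower, and voom called 2 of 26 higher and 2 lower, against 5.1% of all genes. The 2 higher include Col6a3, whose difference was built into the voom filter. The limma count for Met against DIF was 1, Col10a1 alone, without DIF replicates 1 or 2 or Met replicates 2 or 3. It was 3 without PIF replicate 1 or DIF replicate 3, and 4 without PIF replicate 2. The 6 comparisons reuse the same 12 libraries and are not independent of each other.

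**Figure D2:**
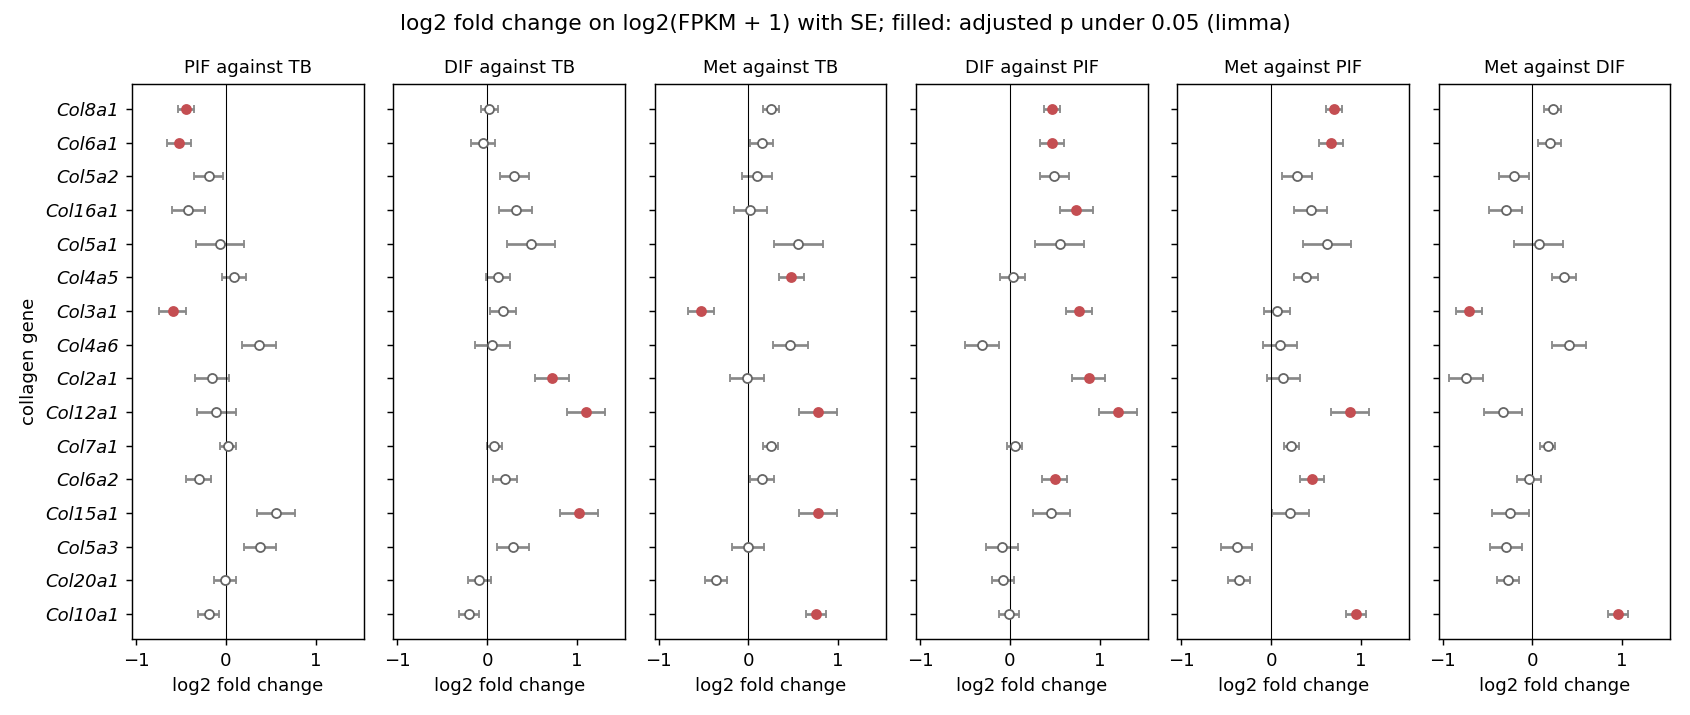
log2 fold changes (x axis, on log2(FPKM + 1)) of the 16 tested collagens (y axis, most abundant at the top) in the 6 comparisons of groups, with bars of 1 SE, and filled points where limma's adjusted p is under 0.05. Filled points are on the right of 0 in DIF against PIF (7) and Met against PIF (5), on the left in PIF against TB (3), and on both sides in Met against TB.

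Among the fibrillar collagens, Col3a1, the homotrimeric chain of type III collagen that accompanies type I in skin (chromosome 1, 45350698 to 45388866, plus strand), stood as follows: TB libraries gave 11, 10.8 and 10.2 FPKM, PIF libraries 7.29, 4.96 and 8.32, DIF libraries 12.7, 13.9 and 10.2 and Met libraries 7.81, 6.93 and 6.51. All TB and DIF values exceeded all PIF and Met values. It fell in PIF against TB (log2 fold change −0.59, SE 0.15, adjusted p 0.021) and was higher in DIF than in PIF (log2 fold change 0.77, SE 0.15, adjusted p 0.0031). Met was lower than DIF (log2 fold change −0.71, SE 0.15, adjusted p 0.021) and lower than TB (log2 fold change −0.53, SE 0.15, adjusted p 0.042). Of these calls, DIF against PIF held without any 1 of the 12 libraries (adjusted p 0.0015 to 0.016), and PIF against TB was lost without TB replicates 1, 2 or 3 (adjusted p 0.054 to 0.065). Met against DIF was lost without DIF replicates 1 or 2 or Met replicates 2 or 3 (adjusted p 0.074 to 0.091), and Met against TB was lost without TB replicates 1, 2 or 3, PIF replicate 1, DIF replicate 1 or Met replicates 1, 2 or 3 (adjusted p 0.052 to 0.14).

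Col2a1 encodes the chain of type II collagen, the main fibril of cartilage (chromosome 15, 97873483 to 97902576, minus strand). Its levels stood as follows: TB libraries gave 5.99, 5.0 and 5.71 FPKM, PIF libraries 6.19, 3.19 and 5.8, DIF libraries 11, 11 and 7.85 and Met libraries 6.33, 5.06 and 5.13. The 3 DIF values lay above those of every other library, and TB, PIF and Met overlapped. Col2a1 rose in DIF against TB (log2 fold change 0.73, SE 0.19, adjusted p 0.033) and against PIF (log2 fold change 0.88, SE 0.19, adjusted p 0.0061), while Met against DIF did not pass (adjusted p 0.051). The call against TB was lost without TB replicates 1, 2 or 3 or DIF replicates 1 or 2 (adjusted p 0.058 to 0.13), and that against PIF held without any 1 of the 12 libraries (adjusted p 0.0045 to 0.028). The difference between Met and DIF passed without PIF replicate 1 (adjusted p 0.045), PIF replicate 2 (0.0067) or DIF replicate 3 (0.037). With all 12 libraries it passed with a filter at 2 FPKM (0.043), with pairs alone (0.043), with quantile scaling (0.039), with the length trend removed (0.021) and by voom on reads of the same genes (0.018). Acan, the cartilage proteoglycan, was almost absent in the same libraries, as given above.

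The type V chains Col5a2 and Col5a1, which start and thin fibrils, were abundant and were not called by limma on log2(FPKM + 1) in any comparison of all 12 libraries. Col5a2 stood as follows: TB libraries gave 20.1, 18.9 and 18.9 FPKM, PIF libraries 18.5, 12.3 and 20.7, DIF libraries 25.4, 27.1 and 20.2 and Met libraries 23.9, 18.7 and 19.7, and the closest it came was DIF against PIF, at an adjusted p of 0.056. That difference passed without PIF replicate 3 (0.021) and without DIF replicate 3 (0.034). It also passed with all 12 libraries by voom on reads of the same genes (0.025), with the length trend removed (0.025) and with a filter at 2 FPKM (0.048). Col5a1 stood as follows: TB libraries gave 11, 11.2 and 10.3 FPKM, PIF libraries 13, 5.69 and 14.3, DIF libraries 16.3, 18.6 and 12.5 and Met libraries 21.3, 13.1 and 15.6. The 3 TB values of Col5a1 (10.3 to 11.2 FPKM) lay inside the PIF range and below all DIF and Met values, but the spread inside PIF, DIF and Met was wide and the adjusted p was 0.32 for DIF and 0.24 for Met against TB. Col5a3, a further type V chain, stayed between 0.393 and 1.57 FPKM and was not called either.

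**Figure D3:**
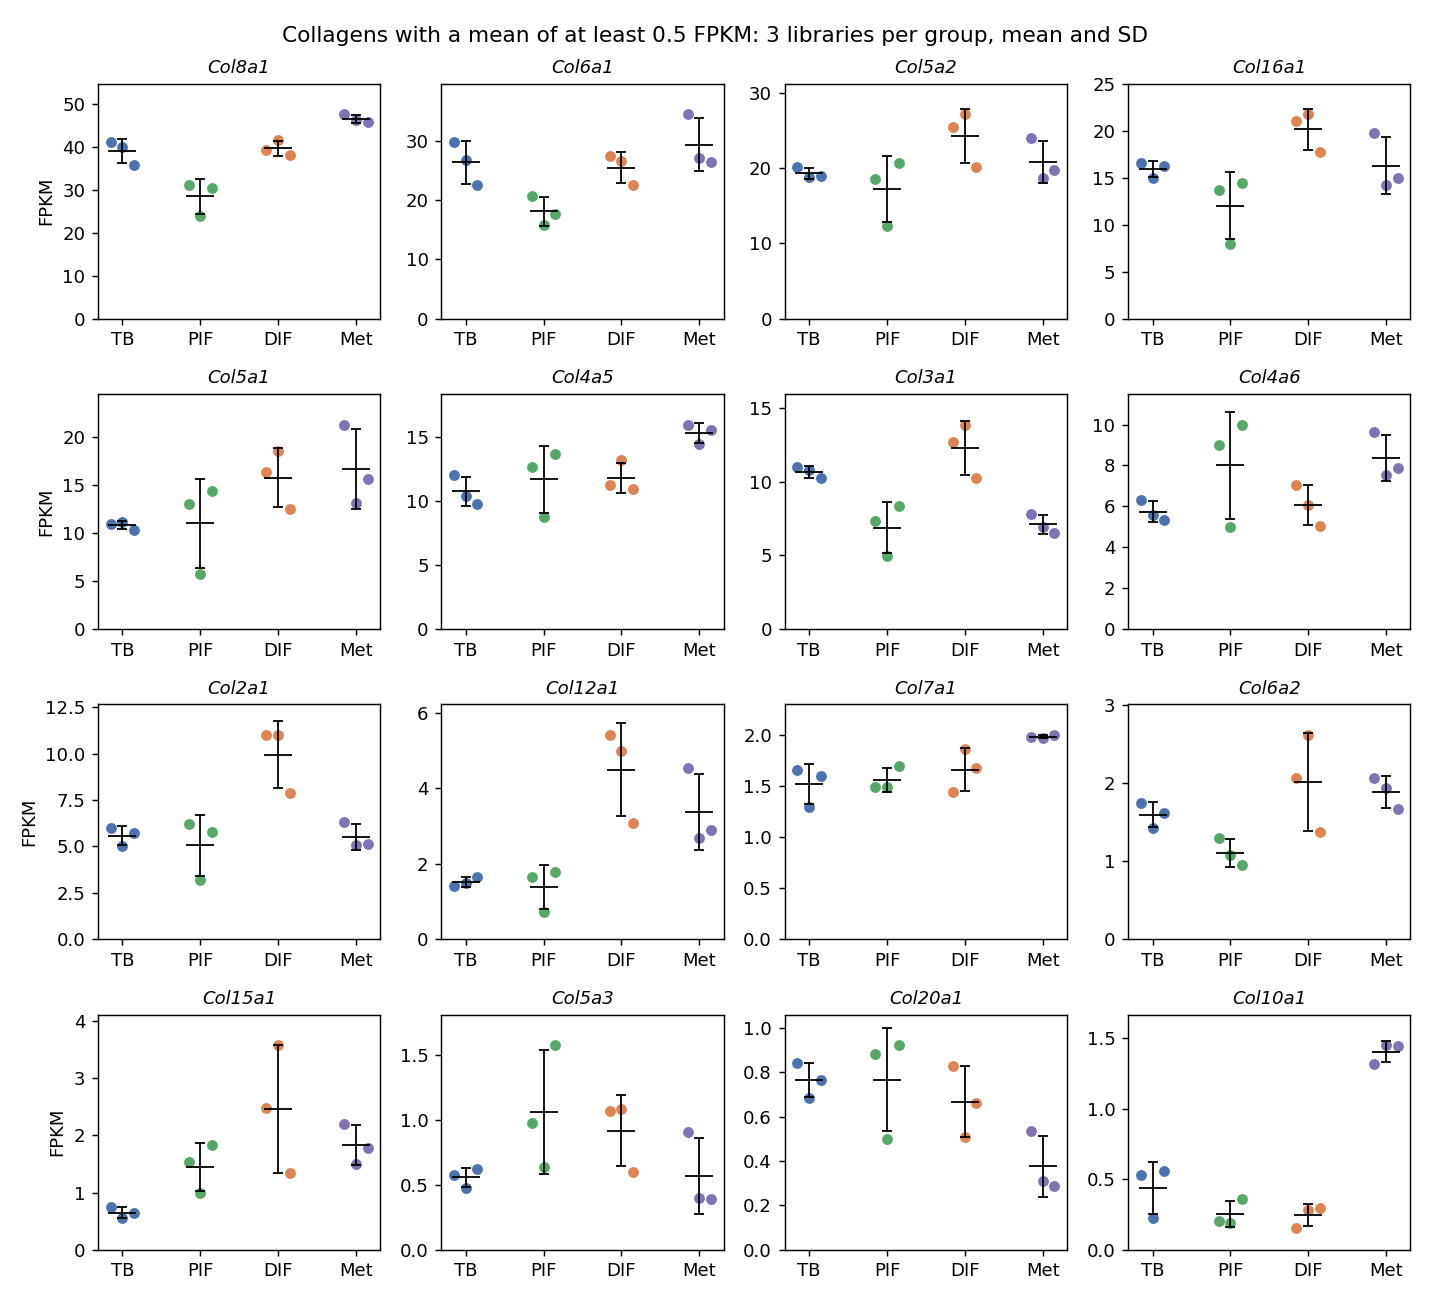
FPKM (y axis, from 0) of the 16 collagens with a mean of at least 0.5 FPKM in the 3 libraries of each group (x axis), one panel per gene, with the mean and SD. PIF points are lowest for Col8a1 and Col6a1, TB and DIF points lie above PIF and Met for Col3a1, and Met points stand above all others for Col10a1.

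Among the network and beaded filament collagens, Col8a1 stood as follows: TB libraries gave 41.3, 39.9 and 35.9 FPKM, PIF libraries 31.3, 23.9 and 30.4, DIF libraries 39.4, 41.6 and 38.2 and Met libraries 47.6, 46.3 and 45.8. The PIF values lay below, and the Met values above, those of every other library, and TB and DIF overlapped. Col8a1 was lower in PIF than in TB (log2 fold change −0.45, SE 0.09, adjusted p 0.0077), DIF (log2 fold change 0.47, SE 0.09, adjusted p 0.0033 for DIF against PIF) and Met (log2 fold change 0.70, SE 0.09, adjusted p 0.00026 for Met against PIF). All 3 calls held without any 1 of the 12 libraries, with adjusted p of at most 0.035, 0.017 and 0.0016. Met against TB and Met against DIF did not pass for Col8a1 (adjusted p 0.11 and 0.23), though Met against TB passed without PIF replicate 2 (0.020) and with pairs alone (0.039).

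Col6a1 (chromosome 10, 76544626 to 76562002, minus strand) stood as follows: TB libraries gave 29.9, 26.8 and 22.6 FPKM, PIF libraries 20.8, 15.9 and 17.8, DIF libraries 27.4, 26.7 and 22.5 and Met libraries 34.6, 27.2 and 26.5. Its PIF values were the lowest of the 12 and the other groups overlapped. PIF was lower than TB (log2 fold change −0.52, SE 0.13, adjusted p 0.023), DIF was higher than PIF (log2 fold change 0.47, SE 0.13, adjusted p 0.026), and so was Met (log2 fold change 0.66, SE 0.13, adjusted p 0.0043). The first call was lost without TB replicates 1 or 2 or PIF replicates 2 or 3 (adjusted p 0.053 to 0.078), the second was lost without PIF replicates 2 or 3 or DIF replicates 1 or 2 (adjusted p 0.062 to 0.089), and Met against PIF held without any 1 of the 12 libraries (adjusted p 0.0041 to 0.019). Col6a2 stood as follows: TB libraries gave 1.75, 1.43 and 1.63 FPKM, PIF libraries 1.3, 1.08 and 0.950, DIF libraries 2.07, 2.62 and 1.37 and Met libraries 2.07, 1.94 and 1.67, again with the PIF values lowest. Its differences passed for DIF (log2 fold change 0.50, SE 0.14, adjusted p 0.024) and Met (log2 fold change 0.46, SE 0.14, adjusted p 0.038) against PIF. DIF against PIF was lost without PIF replicates 2 or 3 or DIF replicates 1 or 2 (adjusted p 0.058 to 0.089), and Met against PIF was lost without TB replicate 3, PIF replicates 2 or 3 or Met replicates 1, 2 or 3 (adjusted p 0.053 to 0.11).

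Col10a1, the network collagen known from hypertrophic cartilage (chromosome 10, 34265977 to 34273081, plus strand), stood as follows: TB libraries gave 0.526, 0.222 and 0.556 FPKM, PIF libraries 0.204, 0.192 and 0.356, DIF libraries 0.153, 0.278 and 0.298 and Met libraries 1.32, 1.45 and 1.45. This corresponds to 75 to 83 reads in each Met library and 8 to 31 reads in each of the others, and the Met values did not overlap any other. Met was higher than TB (log2 fold change 0.75), PIF (0.94) and DIF (0.95), and the quotients of mean FPKM were 3.23, 5.61 and 5.77. All 3 differences were called, but Col10a1 entered the test only through its Met level, so its p-values are not given as support. Col10a1 lies inside the span of Nt5dc1 on the opposite strand, and whether reads were counted by strand is not stated in the labels. Without strand, reads of the 2 genes cannot be told apart where they overlap. Nt5dc1 was measured at 3.30 ± 0.296 FPKM (TB), 3.26 ± 0.232 (PIF), 3.34 ± 0.693 (DIF) and 3.84 ± 0.817 (Met) and was not called among the 4 groups (adjusted p 0.63).

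Col4a5 and Col4a6, which pair in the basement membranes of smooth muscle and some epithelia, were the abundant type IV chains among the members. Col4a5 stood as follows: TB libraries gave 12, 10.4 and 9.8 FPKM, PIF libraries 12.7, 8.72 and 13.7, DIF libraries 11.3, 13.2 and 10.9 and Met libraries 16, 14.5 and 15.6. The Met values exceeded every other, and Met against TB passed (log2 fold change 0.48, SE 0.14, adjusted p 0.046), a call that was lost without TB replicates 2 or 3, PIF replicate 1, DIF replicates 1, 2 or 3 or Met replicates 1, 2 or 3 (adjusted p 0.0501 to 0.17). Met against PIF passed without PIF replicate 3 (0.027) and Met against DIF without PIF replicate 2 (0.044). With all 12 libraries Met against PIF passed by voom on reads of the same genes (0.034) and with the length trend removed (0.049). Col4a6 was measured at 5.74 ± 0.518 FPKM (TB), 8.0 ± 2.64 (PIF), 6.06 ± 0.991 (DIF) and 8.35 ± 1.12 (Met) and was not called by limma in any comparison of all 12 libraries. Met against TB passed with pairs alone (adjusted p 0.023). Without PIF replicate 2, which at 5.01 FPKM lay far under the other PIF libraries (8.99 and 10.0), PIF was called above TB (adjusted p 0.0093), DIF below PIF (0.010) and Met above TB (0.024). Col4a3 and Col4a4, their relatives of kidney and lung basement membrane, had 0 to 16 and 5 to 27 reads per library.

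The sequence just upstream of the transcript start is shown for the 3 genes called lower in PIF than in TB and for Col10a1, whose Met values exceeded all others. RefSeq promoters of build GRCm38.p6 were found for 32 of the 41 members and 13 of the 16 tested. The 250 bases before the start were searched on both strands for the GC box (GGGCGG), the CCAAT box (CCAAT), the TATA box (TATAAA), AP-1 (TGANTCA), the SMAD element (CAGAC), TEAD (GGAATG) and the E-box of MITF (CACGTG). Capitals mark matches, and none overlap another match. Coordinates here are those of GRCm38.p6 and cannot be set beside those of the deposited table.
Col8a1, chr16:57754738-57754987, minus strand: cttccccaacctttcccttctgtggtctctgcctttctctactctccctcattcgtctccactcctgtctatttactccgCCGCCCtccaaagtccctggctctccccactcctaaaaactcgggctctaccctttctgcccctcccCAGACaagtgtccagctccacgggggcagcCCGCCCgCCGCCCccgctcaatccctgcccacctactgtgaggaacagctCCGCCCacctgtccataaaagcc
Col6a1, chr10:76726045-76726294, minus strand: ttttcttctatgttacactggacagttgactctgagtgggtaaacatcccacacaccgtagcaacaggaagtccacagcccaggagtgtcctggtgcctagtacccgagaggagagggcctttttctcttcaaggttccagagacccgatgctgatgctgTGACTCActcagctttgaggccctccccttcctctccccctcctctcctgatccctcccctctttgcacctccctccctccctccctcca
Col3a1, chr1:45311288-45311537, plus strand: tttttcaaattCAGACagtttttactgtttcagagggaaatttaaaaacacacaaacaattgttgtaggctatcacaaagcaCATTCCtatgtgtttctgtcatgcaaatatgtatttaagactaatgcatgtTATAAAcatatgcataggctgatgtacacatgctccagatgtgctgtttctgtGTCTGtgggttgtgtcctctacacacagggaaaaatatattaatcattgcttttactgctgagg
Col10a1, chr10:34389731-34389980, plus strand: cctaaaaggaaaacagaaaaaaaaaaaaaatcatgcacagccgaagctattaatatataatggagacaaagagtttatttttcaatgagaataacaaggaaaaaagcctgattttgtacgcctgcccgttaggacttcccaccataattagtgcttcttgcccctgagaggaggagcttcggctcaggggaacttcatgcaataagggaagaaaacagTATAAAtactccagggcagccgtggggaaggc
The 3 genes lower in PIF shared no motif that all of them held. Col8a1 held 4 GC boxes, found in 32.7% of all 32851 upstream sequences, and a SMAD element, found in 42.2%. Col3a1 held 2 SMAD elements, a TEAD match (12.6% of all) and a TATA match (12.4%) that begins 117 bases before the start. Col6a1 held an AP-1 match (6.75% of all), and Col10a1 a TATA match that begins 32 bases before the start. The 14 upstream sequences of tested collagens came from 13 genes, and Col6a2 gave 2 of them, both with a GC box. Of the 14, 9 held a GC box, 6 a SMAD element and 4 a CCAAT box (33.8% of all). TEAD matched in 3, TATA in 2, AP-1 in 1 and the E-box, which 6.02% of all hold, in 0. These matches describe the letters only and say nothing of binding.

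Among the FACIT collagens, Col16a1 and Col12a1 were called. Col16a1, which lies on fibrils and near basement membranes, stood as follows: TB libraries gave 16.6, 14.9 and 16.2 FPKM, PIF libraries 13.6, 7.92 and 14.4, DIF libraries 21.1, 21.8 and 17.7 and Met libraries 19.7, 14.2 and 15. DIF values were above PIF values without overlap (log2 fold change 0.74, SE 0.18, adjusted p 0.015). That call was lost without DIF replicate 2 (adjusted p 0.055) and with pairs alone (0.054). Col12a1, a large chain that bridges type I fibrils to their surroundings (chromosome 9, 79506273 to 79626113, minus strand), stood as follows: TB libraries gave 1.4, 1.48 and 1.66 FPKM, PIF libraries 1.65, 0.731 and 1.79, DIF libraries 5.41, 4.99 and 3.09 and Met libraries 4.54, 2.69 and 2.89. Every DIF and Met value exceeded every TB and PIF value. DIF was higher than TB (log2 fold change 1.10, SE 0.21, adjusted p 0.008) and PIF (log2 fold change 1.21, SE 0.21, adjusted p 0.002), and both calls held without any 1 of the 12 libraries (adjusted p at most 0.041 and 0.011). Met was higher than PIF (log2 fold change 0.88, SE 0.21, adjusted p 0.015), which was lost without Met replicate 1 (adjusted p 0.058). Met was higher than TB (log2 fold change 0.77, SE 0.21, adjusted p 0.041), which was lost without TB replicates 1, 2 or 3, PIF replicate 1, DIF replicate 2 or Met replicates 1, 2 or 3 (adjusted p 0.051 to 0.15). Col20a1, a FACIT chain at 0.286 to 0.921 FPKM, was not called by limma on log2(FPKM + 1) with all 12 libraries. Met was called lower than PIF without PIF replicate 2 (adjusted p 0.022). By voom on reads of the same genes Met was lower than TB (0.036) and PIF (0.035). It shares part of its span with 9230112E08Rik, a noncoding gene on the same strand.

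Col15a1, a collagen with heparan or chondroitin sulfate chains that lies at the edge of basement membranes (chromosome 4, 47208161 to 47313167, plus strand), stood as follows: TB libraries gave 0.743, 0.546 and 0.646 FPKM, PIF libraries 1.54, 0.988 and 1.82, DIF libraries 2.47, 3.57 and 1.34 and Met libraries 2.2, 1.5 and 1.79. All 3 TB values lay below those of every other library. DIF was higher than TB (log2 fold change 1.02, SE 0.21, adjusted p 0.01) and the call held without any 1 of the 12 libraries (adjusted p 0.0011 to 0.045). Met was higher than TB (log2 fold change 0.78, SE 0.21, adjusted p 0.036), a call that was lost without TB replicates 1, 2 or 3, PIF replicate 1 or Met replicates 1, 2 or 3 (adjusted p 0.0502 to 0.12). PIF was not called against TB (adjusted p 0.099), though its 3 values did not overlap those of TB, and it passed without DIF replicate 3 (0.034), as did DIF against PIF (0.015). With a pseudocount of 0.1, PIF against TB passed with all libraries (0.049). Col7a1, the anchoring fibril collagen of skin, stayed between 1.30 and 2.0 FPKM in all libraries and was not called by limma on log2(FPKM + 1). By voom on reads of the same genes it was higher in Met than in TB (adjusted p 0.041) and PIF (0.043).

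Of the 25 collagens under 0.5 FPKM, 9 had at least 10 reads in every library of a group. They were Col11a1, Col9a3, Col1a1, Col27a1, Col23a1, Col9a1, Col4a4, Col17a1 and Col6a3. The other 16 had at most 16 reads in a library. To test such genes, limma's voom was run on the rebuilt reads of the 14175 genes with at least 10 reads in at least 3 libraries, an alternative chosen after seeing the data, which took in 26 collagens. In its F test over the 4 groups 15 of 26 were called, against 27.5% of all genes, among them Col1a1, Col23a1, Col9a1 and Col6a3 of those under 0.5 FPKM. Col23a1 had 10 reads only in DIF and Met libraries, and Col6a3 only in the Met libraries and PIF replicate 3. Col9a1 had 10 reads in the TB and DIF libraries and Met replicates 1 and 3, but in no PIF library. All of these entered the test through the groups where they were high. Their differences were built into the filter, they count among the 26, and their values are given as reads alone.

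Col1a1, the main chain of type I collagen (chromosome 11, 94827050 to 94843868, plus strand), was found in few reads: TB libraries gave 17, 7 and 10 reads, PIF libraries 11, 4 and 6, DIF libraries 29, 107 and 30 and Met libraries 153, 77 and 81. Every DIF and Met library held more reads than any TB or PIF library. By voom, Met was higher than TB (log2 fold change 3.09, SE 0.62, adjusted p 0.003) and PIF (log2 fold change 3.79, SE 0.71, adjusted p 0.0012), and DIF was higher than PIF (log2 fold change 2.74, SE 0.75, adjusted p 0.016), while DIF against TB did not pass (adjusted p 0.06). Even the highest level, 1.28 FPKM in Met replicate 1, was under that of 10 other members in every library. Col1a2 was found in few reads: TB libraries gave 3, 2 and 3 reads, PIF libraries 1, 2 and 9, DIF libraries 4, 6 and 8 and Met libraries 9, 3 and 7, and all groups overlapped. Thy1, a fibroblast surface protein, was listed at 0 FPKM in all TB and PIF libraries and measured at 0.0546 ± 0.0791 in DIF and 0.335 ± 0.0873 in Met, and Fap, another, at 0.0369 ± 0.00620 (TB), 0.0414 ± 0.0136 (PIF), 0.157 ± 0.0689 (DIF) and 0.216 ± 0.104 (Met). Thy1 and Fap were chosen from the fibroblast markers after their values were seen, and others went otherwise. Pdgfra was highest in PIF, and so was Dcn, at 0.0130 ± 0.00584 FPKM (TB), 0.144 ± 0.102 (PIF), 0.0405 ± 0.0377 (DIF) and 0.0499 ± 0.0106 (Met). Clec3b was at 0.316 ± 0.172 FPKM in DIF and 0.0733 ± 0.0635 in Met. Gsn was higher in DIF (115 ± 3.11 FPKM) and Met (106 ± 2.15) than in TB (93.4 ± 2.62) and PIF (88.7 ± 1.61). The part of these markers in the Col1a1 difference was not tested.

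Col23a1, a transmembrane collagen, was found in few reads: TB libraries gave 2, 5 and 2 reads, PIF libraries 4, 9 and 3, DIF libraries 65, 44 and 39 and Met libraries 59, 21 and 26, without overlap between DIF or Met on one side and TB or PIF on the other. Col9a1, a FACIT chain of cartilage fibrils, went another way, as its reads show: TB libraries gave 40, 37 and 36 reads, PIF libraries 3, 8 and 4, DIF libraries 33, 21 and 23 and Met libraries 13, 8 and 11. Its TB values were the highest and its PIF values, with 1 tie at 8 reads, the lowest. By voom it was called lower in PIF and in Met than in TB, and higher in DIF than in PIF. It entered that test through the groups where it was high, so its p-values are not given as support. Its partners Col9a2 (1 to 14 reads) and Col9a3 (24 to 39 reads) were not called among the 4 groups (adjusted p 0.41 and 0.94). Col6a3 had 18 to 33 reads in Met and 0 to 12 in the other libraries, without overlap. Col11a1, a partner of type V chains, had 61 to 250 reads and was not called among the 4 groups (adjusted p 0.26).

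**Figure D4:**
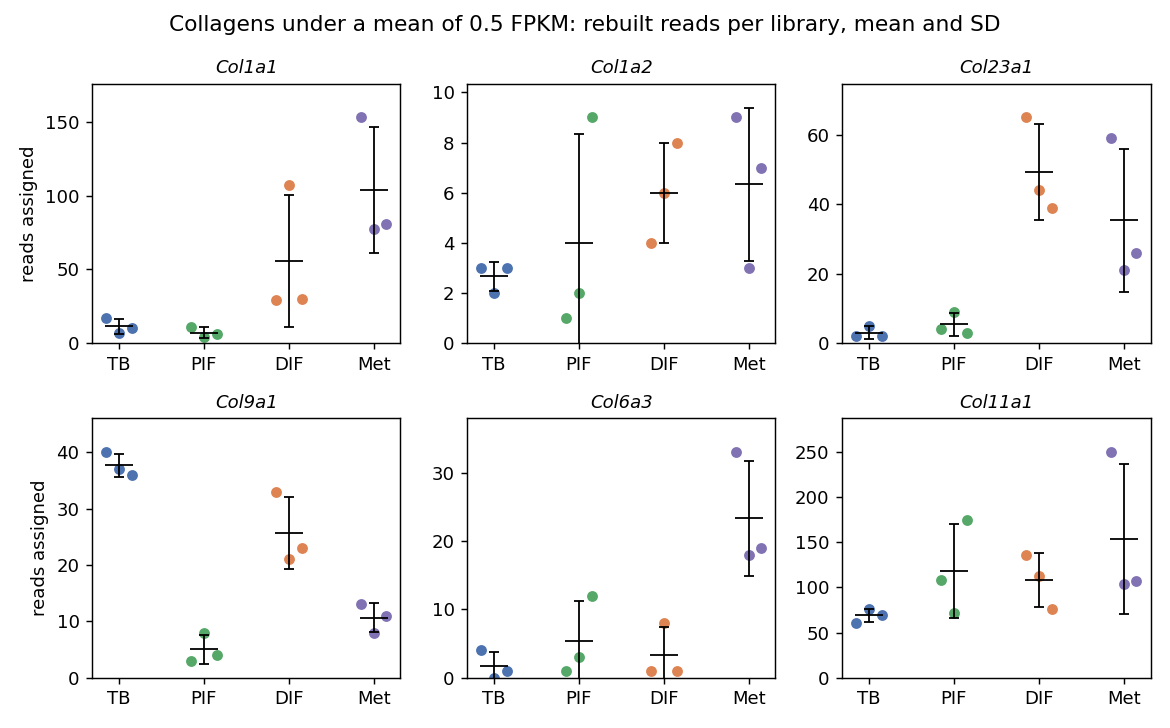
Rebuilt reads per library (y axis) of 6 collagens under a mean of 0.5 FPKM in the 3 libraries of each group (x axis), with the mean and SD. Col1a1 and Col23a1 are higher in DIF and Met than in TB and PIF, Col9a1 has 36 to 40 reads in TB and 3 to 8 in PIF, Col6a3 is highest in Met, and Col1a2 stays at 1 to 9 reads throughout.

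Collagens of a library tended to deviate to the same side of their group means. In PIF replicate 2 all 16 tested collagens lay below the mean of their group, by a median of 0.34 on the log2(FPKM + 1) scale, and in DIF replicate 3 13 of 16 did, by a median of 0.22. In PIF replicate 3 and Met replicate 1 the median collagen lay 0.23 and 0.18 above its group mean. Genes longer than 6 kb as a whole deviated in the same direction in these 4 libraries but less, by −0.059, −0.030, 0.047 and 0.025 in the order named, and genes under 1.5 kb deviated by 0.10, 0.051, −0.071 and −0.063. With a trend on gene length removed from each library, an alternative chosen after seeing the data, all 25 calls of collagens in pairs of groups held. Without PIF replicate 2, 4 of the 25 were lost. They were Col6a1 in PIF against TB (adjusted p 0.066) and in DIF against PIF (0.089), and Col6a2 in DIF against PIF (0.058) and in Met against PIF (0.084). What set PIF replicate 2 apart is not given in the labels.

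**Figure D5:**
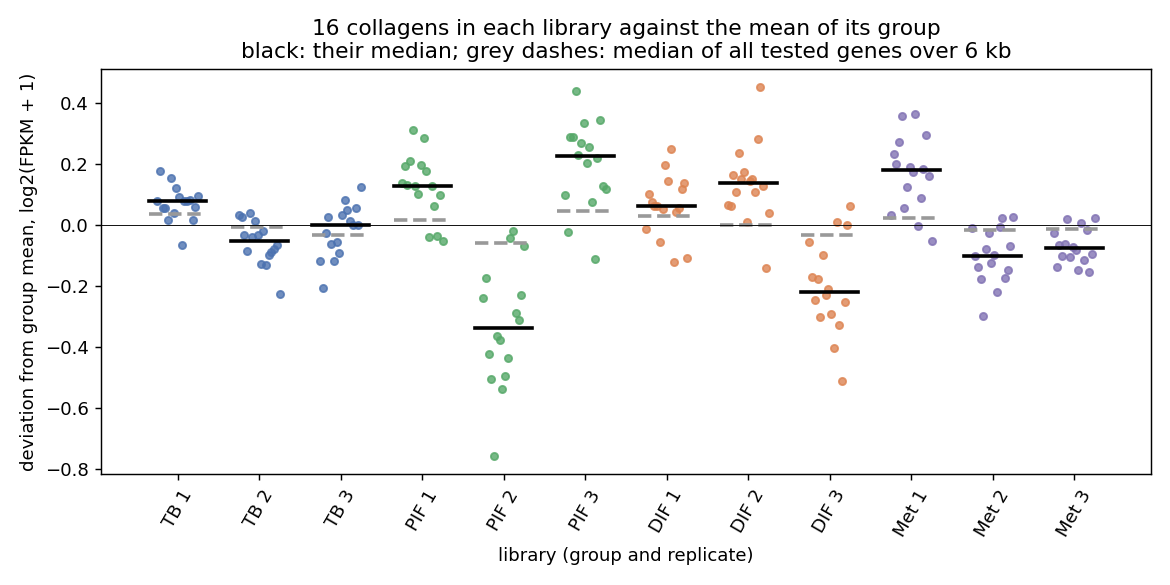
Deviation of each of the 16 tested collagens from the mean of its group (y axis, log2(FPKM + 1)) in each library (x axis), with the median of the 16 as a black line and the median of all tested genes over 6 kb as grey dashes. All points of PIF replicate 2 lie under 0, with a median of −0.34, while long genes as a whole lie at −0.059 there.

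The proteins that fold, export, trim and bind collagen were read from the same fit, in lists drawn up for this comparison. Medians of all tested genes lay between −0.0031 and 0.0075 in every pair. Of all tested genes, 14.1% were called in PIF, 8.62% in DIF and 9.94% in Met against TB, and the counts below are to be read against these shares. Of 21 tested genes of folding and modification, 2 rose and 5 fell in PIF against TB (median −0.07), 2 rose and 0 fell in DIF (0.06), and 2 rose and 3 fell in Met (−0.04). Hspa5, the main chaperone of the endoplasmic reticulum, was at 124 ± 2.24 FPKM (TB), 211 ± 26.5 (PIF), 103 ± 4.85 (DIF) and 109 ± 7.90 (Met) and rose in PIF against TB (adjusted p 0.00030). Sparc, a secreted collagen-binding protein, was at 1057 ± 14.2, 631 ± 48.9, 929 ± 33.5 and 865 ± 32.3 FPKM in the same order and fell in PIF (adjusted p 7.3e-05) and Met (0.016) against TB. P4ha3, a subunit of the prolyl 4-hydroxylase that stabilises the triple helix, was at 2.36 ± 0.308 FPKM (TB), 1.77 ± 0.529 (PIF), 4.39 ± 0.760 (DIF) and 4.55 ± 0.373 (Met), and rose in DIF (adjusted p 0.0098) and Met (0.0052) against TB. P3h3, of the prolyl 3-hydroxylase family, was at 11.2 ± 0.503, 7.68 ± 0.475, 13.1 ± 0.794 and 9.44 ± 0.729 FPKM in the same order and fell in PIF against TB (adjusted p 0.0011). Of 11 tested genes of procollagen export, 2 rose and 0 fell in PIF (median −0.02), 1 rose and 1 fell in DIF (0.12), and 3 rose and 0 fell in Met (0.14) against TB. Among them the coat protein Sec31a went from 37.2 ± 1.22 FPKM in TB to 43.1 ± 0.829 in DIF and 43.2 ± 0.920 in Met (adjusted p 0.030 and 0.025).

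Processing and assembly genes had the most calls of the 4 lists in each comparison with TB. Against the shares of all genes called (14.1%, 8.62% and 9.94%), of 18 tested 4 rose and 7 fell in PIF (median −0.08), 9 rose and 0 fell in DIF (0.45), and 11 rose and 2 fell in Met (0.58) against TB. Pcolce, which speeds the trimming of procollagen ends, was at 6.27 ± 0.501 FPKM (TB), 3.85 ± 0.506 (PIF), 18.0 ± 1.45 (DIF) and 9.97 ± 0.879 (Met), and each group differed from TB (adjusted p 0.0020, 3.2e-06 and 0.0016). Adamts2, the protease that removes the amino end of procollagens I to III, was at 0.235 ± 0.113, 0.104 ± 0.0606, 2.39 ± 0.379 and 1.03 ± 0.250 FPKM. It lay under the filter of 0.5 FPKM in TB and PIF and was tested through DIF and Met. Its calls in DIF and Met against TB, counted among the 9 and 11, were thus built into the filter. Of 10 tested receptors and uptake genes, 1 rose and 1 fell in PIF (median 0.13), 1 rose and 0 fell in DIF (0.17), and 4 rose and 0 fell in Met (0.20) against TB. Mrc2, an endocytic receptor for collagen, was at 1.92 ± 0.219 FPKM (TB), 2.77 ± 0.990 (PIF), 7.94 ± 0.721 (DIF) and 6.25 ± 0.828 (Met) and rose in DIF (adjusted p 9.0e-05) and Met (0.00037). Ddr2, a receptor kinase for fibrillar collagen, went from 0.666 ± 0.0790 FPKM in TB to 1.40 ± 0.0739 in Met (adjusted p 0.0016).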

How the data were processed

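RNA of 12 libraries was read from both ends, 150 bases each, per the labels' protocols. Per the submitters' processing notes, fastp, HISAT2 2.0.5 and featureCounts 1.5.0-p3 were used. Which build, annotation and strand option served is not given in the sources used here, so coordinates are those of the deposited table. The deposited values are FPKM, computed by the authors per gene length and library. FPKM times gene length gave whole multiples of 1 step for 100% of values above 0 (tolerance 0.001), from which reads were rebuilt. Libraries of a group differed by more than sampling noise (mean chi-square per gene of 4.23 to 25.9 over the 12 pairs of libraries inside a group).

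Genes with a mean of at least 0.5 FPKM were tested with limma 3.58.1 in R 4.3.3 on log2(FPKM + 1), with a mean for each group, 1 spread estimate and an intensity trend, two-sided, and Benjamini-Hochberg adjustment over all tested genes. The procedure was also run on simulated counts with the same dispersion for every gene and no shifts of whole libraries. Such counts cannot show how it performs on libraries with shared deviations like these. Named genes were all collagens, the 4 members of each partner list with the smallest F test p (a part is named), and the 2 most abundant markers of each list. Mlana, Dct, Tyr, Pmel, Gpnmb, Mitf, S100b, Dcn, Lum, Clec3b, Acan, Thy1, Fap, the markers at 0 and Nt5dc1 were chosen after their values were seen. The members and lists were chosen with earlier results of these data known. Alternatives were other filters, pseudocounts and scalings, voom on rebuilt reads, pairs alone, a replicate block and leaving out each library.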

Additional observations from a re-analysis of the deposited data

How the results depend on the processing

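Every called fold change of a collagen kept its direction under all alternatives run. Counts of collagens called moved by over 1.5 times as follows, where fewer or more collagens were tested in some: with a filter at a mean of 2 FPKM, which left 10 collagens, 3 in Met against TB and 3 in Met against PIF. With no filter, 1 was called in Met against DIF. With voom on the rebuilt reads of the same genes, 8 were called in Met against PIF and 11 over the 4 groups, and with voom on 26 collagens 11 in Met against TB, 11 in DIF against PIF, 11 in Met against PIF, 4 in Met against DIF and 15 over the 4 groups. The wider voom run, whose counts include Col23a1, Col6a3 and Col9a1, and the removal of a length trend were chosen after seeing the data. The cause of these moves was not tested.

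With only the 6 libraries of a pair, the count of all genes called was 1132 in PIF against TB, 1497 in DIF against PIF and 300 in Met against DIF. With each library left out, collagens called ranged from 1 to 4 in PIF against TB, 2 to 3 in DIF against TB, 1 to 7 in Met against TB, 4 to 9 in DIF against PIF, 3 to 5 in Met against PIF, 1 to 4 in Met against DIF and 6 to 9 over the 4 groups. All genes called ranged from 958 to 1843, 589 to 1264, 793 to 1467, 1822 to 2384, 1624 to 2298, 234 to 595 and 2377 to 3118 in the same order. The lowest counts of collagens in Met against TB and in Met against DIF, 1 each, were Col10a1, whose difference was built into the filter.

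The share of Col8a1 in the collagen sum was 26.3% in TB by rebuilt reads, and 21.6% (TB), 16.4% (PIF), 16.8% (DIF) and 19.6% (Met) with Col4a1, Col4a2 and Col18a1 added. Without 1 library it ranged from 25 to 25.7% (TB), 21.3 to 23.5% (PIF), 20.9 to 22.7% (DIF) and 25 to 27.3% (Met). Deviations of libraries with the same replicate number correlated at −0.20 to 0.33, and 5 of 18 such pairs exceeded 0.1. Those with different numbers correlated at −0.33 to 0.32, and 8 of 36 pairs exceeded 0.1. The numbers were therefore not taken to pair libraries. With the replicate block, Met against TB had 3 collagens called, and calls for Col4a5, Col3a1 and Col15a1 there were lost (adjusted p 0.054, 0.056 and 0.052), while Col20a1 passed there (0.049) and in Met against PIF (0.035), and Col2a1 in Met against DIF (0.038). Of the 25 calls, 11 were lost with no filter, 3 with a filter at 0.1 FPKM, 3 with pairs alone and 1 with a pseudocount of 0.1. The 3 lost with pairs alone were Col3a1 in PIF against TB and Col16a1 and Col6a2 in DIF against PIF. Quantile scaling, voom and the removed length trend lost 0 of the 25 calls. Precision for collagens with few reads is limited by counting error.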

Other observations

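Lists of collagen breakdown and of the supply of its amino acids were read from the same fit, in which 14.1% of all tested genes were called in PIF, 8.62% in DIF and 9.94% in Met against TB. Of 10 tested genes of collagen degradation, 3 rose and 0 fell in PIF (median −0.01), 2 rose and 4 fell in DIF (−0.18), and 1 rose and 5 fell in Met (−0.41) against TB. Mmp1a, an interstitial collagenase, was at 23.3 ± 2.05 FPKM (TB), 62.2 ± 6.03 (PIF), 5.27 ± 0.418 (DIF) and 5.80 ± 0.668 (Met), and limma's adjusted p against TB was 2.4e-05, 2.1e-07 and 2.3e-07. Reads may be shared between Mmp1a and its close relative Mmp1b, which was at 1.21 ± 0.297, 2.45 ± 0.109, 0.165 ± 0.113 and 0.163 ± 0.143 FPKM, so their division is uncertain. Mmp1b lay under the filter of 0.5 FPKM in DIF and Met and was tested through TB and PIF. Its calls in DIF and Met against TB, counted among the 4 and 5 that fell, were thus built into the filter. The lysosomal protease Ctsb was at 269.9 ± 4.60, 348 ± 23.8, 182 ± 3.93 and 187 ± 9.20 FPKM in the same order. Of 13 tested genes of proline and glycine supply, 5 rose and 1 fell in PIF (median 0.22), 0 rose and 5 fell in DIF (−0.13), and 1 rose and 5 fell in Met (−0.11) against TB. Phgdh, the first enzyme of serine synthesis, was at 103 ± 6.52 FPKM (TB), 121 ± 6.05 (PIF), 77.9 ± 6.01 (DIF) and 64.0 ± 5.83 (Met).

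Values of collagen genes that lie next to each other are set side by side here. Col3a1 and Col5a2 lie 24614 bases apart on chromosome 1 and run in opposite directions. Col3a1 was called in 4 of the 6 comparisons and Col5a2 in 0 by limma, while voom on the rebuilt reads called Col5a2 in DIF against PIF (adjusted p 0.022). Col4a6 and Col4a5 lie 1308 bases apart on the X chromosome, head to head, and Col4a5 exceeded Col4a6 by a quotient of 1.87 ± 0.0313 (TB), 1.51 ± 0.204 (PIF), 1.98 ± 0.326 (DIF) and 1.85 ± 0.170 (Met). Col6a1 and Col6a2 lie 85161 bases apart on chromosome 10. Whether the members of a pair differ in their changes was not tested.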
